A study of Mus musculus with 6 samples.

Results

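Canonical Wnt signalling was examined gene by gene in intestinal stem cells sorted from organoids in which the RNA-binding protein gene Ythdf2 was floxed. The members were 51 genes of the 56884 in the deposited tables, chosen by symbol: 7 genes of ligands, their secretion and R-spondin, 9 receptors and co-receptors, 9 cytoplasmic transducers and destruction complex genes, 9 nuclear factors, 3 secreted inhibitors, 6 feedback inhibitors that are themselves targets, and 8 other targets. The Wnt targets and stem cell markers Lgr5 and Ascl2 were not members. All organoids were grown from small intestine of mice carrying Villin-CreERT2, Lgr5-EGFP-IRES-CreERT2 and Ythdf2 fl/fl, so both tamoxifen-dependent Cre drivers were present in every group, controls included. Cultures received EtOH or 0.5 µM 4-OHT, the active tamoxifen metabolite that releases CreERT2, and Lgr5-GFP+ cells were collected 4 or 6 days later. The 4 groups were EtOH at day 4 (1 library), 4-OHT at day 4 (1 library), EtOH at day 6 (2 libraries) and 4-OHT at day 6 (2 libraries). Villin-CreERT2 is active throughout the gut epithelium and Lgr5-EGFP-IRES-CreERT2 in Lgr5+ cells, so recombination could also occur outside the sorted cells. The age of the mice, and whether the day 6 replicates came from separate mice or cultures, are not given in the sources used here, and p-values measure only the spread between these libraries. No 4-OHT-treated culture without a floxed allele or without Cre was analysed here, so 4-OHT, Cre activity and the deletion cannot be told apart.

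In canonical Wnt signalling, secreted Wnt proteins, which need the acyltransferase Porcn and the carrier Wls to leave the cell, bind Frizzled receptors and the co-receptors Lrp5 and Lrp6. Dishevelled proteins then hold back the destruction complex of Apc, Axin, Gsk3 and casein kinase, so that β-catenin (Ctnnb1) accumulates and, with Tcf factors, Bcl9 and Pygopus proteins, turns on target genes. In the intestinal crypt this pathway maintains Lgr5+ stem cells, Paneth and stromal cells supply Wnt proteins, R-spondins bound to Lgr receptors keep Frizzleds at the surface by holding off the ligases Rnf43 and Znrf3, and several targets such as Axin2, Nkd1 and Notum act back as inhibitors.

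The libraries held 14345379 to 21461835 counts on genes. At day 4, 24195 genes had a count in 4-OHT and 26521 in EtOH, against 19522 to 20622 in the day 6 libraries. In the libraries labelled 4-OHT the floxed gene, Ythdf2, was higher at 207.6 and 204.4 CPM at day 6 and 167 CPM at day 4, against 82.8 and 76.1 CPM in EtOH at day 6 and 76.0 CPM at day 4. CPM are counts scaled to a common library size after TMM scaling over the 6 libraries. A count over the whole gene does not show whether the floxed part was lost, and the direction runs against loss of the transcript, so these are named as the libraries labelled 4-OHT. Kif26b, named in the series title, ran the other way (3.81 and 4.35 CPM in EtOH and 0.419 and 0.0536 CPM in 4-OHT at day 6). Summed levels of 7 stem cell markers were 6394 and 5945 CPM in EtOH and 4327 and 3887 CPM in 4-OHT at day 6, and all 7 were detected. Of these, Olfm4 was called lower at day 6 (3304 and 2244 CPM against 1320 and 984 CPM, adjusted p = 0.0312 by edgeR). Most of the difference in the sum was Olfm4. Igfbp4 was called higher over both days (log2 fold change 0.68, adjusted p = 0.00856 by edgeR), and the other 5 were not called. Slc12a2 and Ascl2 overlapped between the day 6 groups. The sum of 10 enterocyte markers was 1486 and 1586 CPM in EtOH and 4213 and 3633 CPM in 4-OHT at day 6, with 7 of the 10 called higher. Tuft markers summed to 37.1 and 20.4 CPM in EtOH and 11.4 and 9.75 CPM in 4-OHT at day 6, with Dclk1 called lower at day 6 and Pou2f3 over both days. Goblet markers summed to 3357 and 3465 CPM against 2871 and 2587 CPM, with 2 of 7 called higher (Clca1 and Zg16). Most of that sum was Fcgbp (2196 and 2434 CPM in EtOH, 1585 and 1690 CPM in 4-OHT at day 6), which was not called. Of all genes tested at day 6, 2.27% were called higher and 0.235% lower. Stromal markers stood at 1.62 to 4.29 CPM in sum over the 6 libraries, with 2 of 10 at 0 in all of them. In sorted bulk samples, fewer cells of a type and less RNA per cell cannot be told apart. The part of these shifts in the results below was not tested.

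No layer of the pathway held a called member at day 6. Of the 51 members, 42 had enough counts to be tested there, and 0 passed an adjusted p of 0.05 in edgeR's quasi-likelihood test with Benjamini-Hochberg adjustment over all 14066 genes, where 2.51% of all genes were called (2.27% higher and 0.235% lower). DESeq2 also called 0. At an unadjusted p under 0.05, 3 members were lower (Fzd2, Zfp703 and Axin2) and 0 higher, against 10.3% of all genes in either direction, 2.79% lower and 7.54% higher. The median log2 fold change of the 42 members was -0.01, as it was over all genes tested (-0.01), with 18 members above 0 and 24 below, where 48.2% of all genes were above 0. The estimates ran from -0.83 for Wnt9b to 0.72 for Fzd8. The 95% interval of the fold change lay within 2-fold in both directions for 37 of the 42, and reached beyond it for Wnt9b, Fzd2, Fzd8, Nkd1 and Tnfrsf19.

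With the libraries of both days in 1 fit and day as a term, 2 of 43 tested members were called, and both were lower: the receptor gene Fzd2 and the target gene Zfp703. Of all 14060 genes, 4.39% were called, with 0.718% lower and 3.67% higher. At an unadjusted p under 0.05 there were 4 members lower, with Dvl2 and Axin2 beside those called, and 0 higher, where 5.79% of all genes were lower and 10.3% higher. The median over the 43 members was 0.01, and over all genes -0.01, with 24 members above 0 where 48.6% of all genes were. The 95% intervals again lay within 2-fold for 37 members. A miss of the threshold does not show that a gene was equal in the groups.

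**Figure D1:**
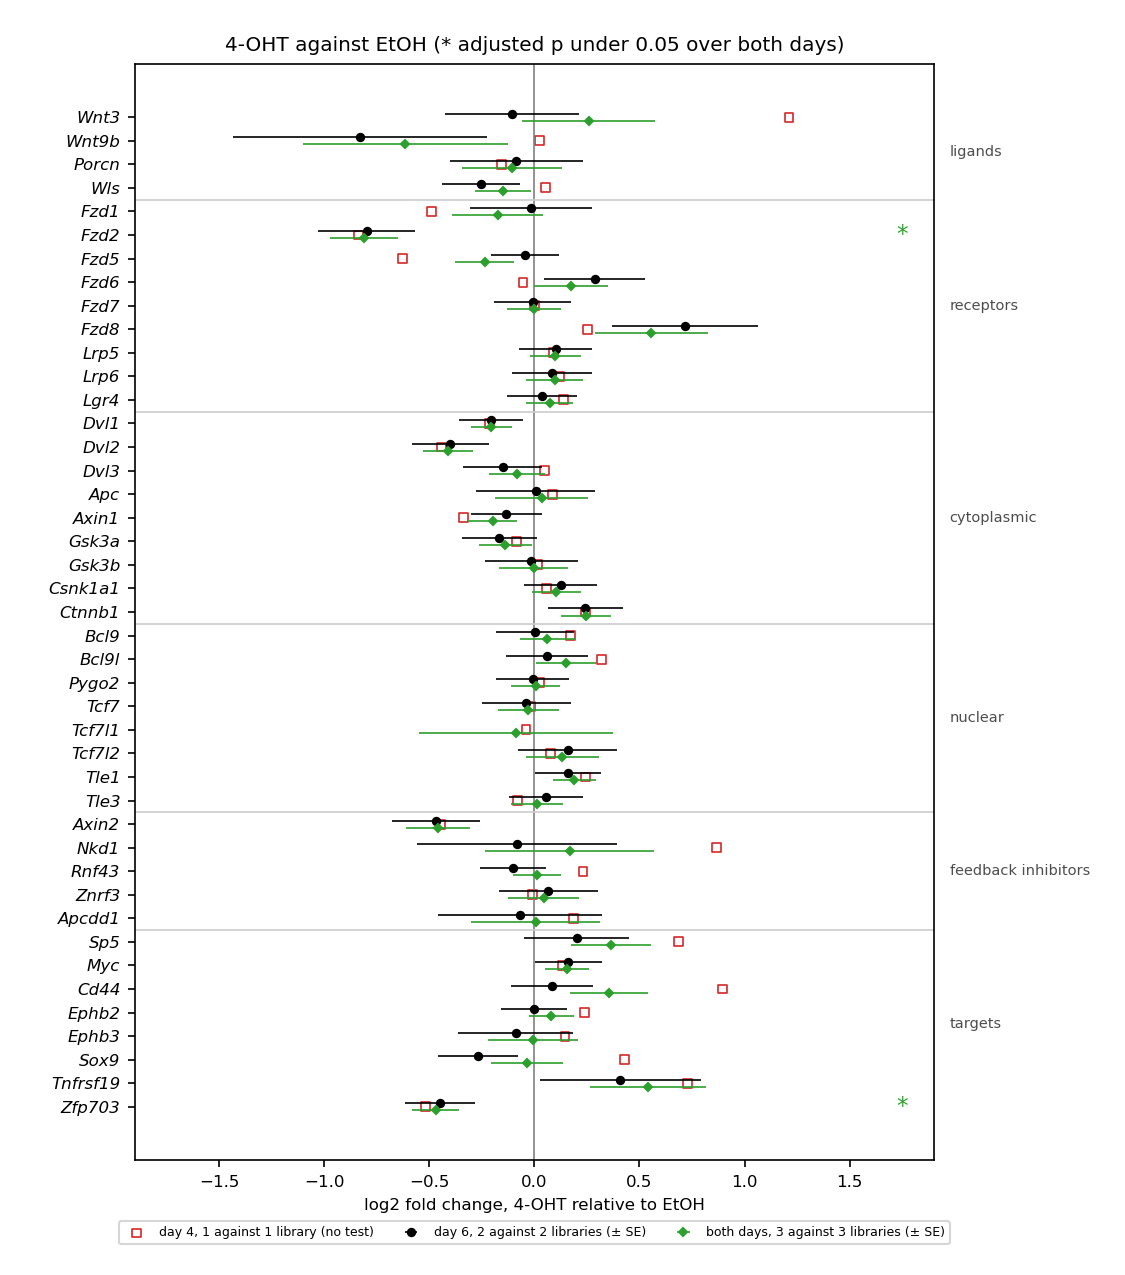
Log2 fold changes of 4-OHT relative to EtOH for the tested members, ordered by layer. Open squares are day 4 (1 library against 1, no test), black circles day 6 (2 against 2) and green diamonds the fit over both days (3 against 3), with bars of 1 standard error, and stars mark the 2 genes called over both days, Fzd2 and Zfp703.

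The genes differed widely in level, as the plot of counts per kilobase shows. Per kilobase of exon, the highest members over the 6 libraries were the target Myc (mean 83.3 CPM per kb), Ctnnb1 (82.8 CPM per kb), Zfp703 (55.8 CPM per kb) and the casein kinase Csnk1a1 (48.8 CPM per kb). The highest receptor was Lrp5 (32.4 CPM per kb), the highest feedback inhibitor Axin2 (28.6 CPM per kb) and the highest nuclear factor Pygo2 (17.0 CPM per kb). The ligand layer was low, with Wls at its top (3.94 CPM per kb). At the bottom, 5 members stayed under 10 counts in every library: Rspo1, Sfrp1, Dkk2, Dkk3 and Notum.

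**Figure D2:**
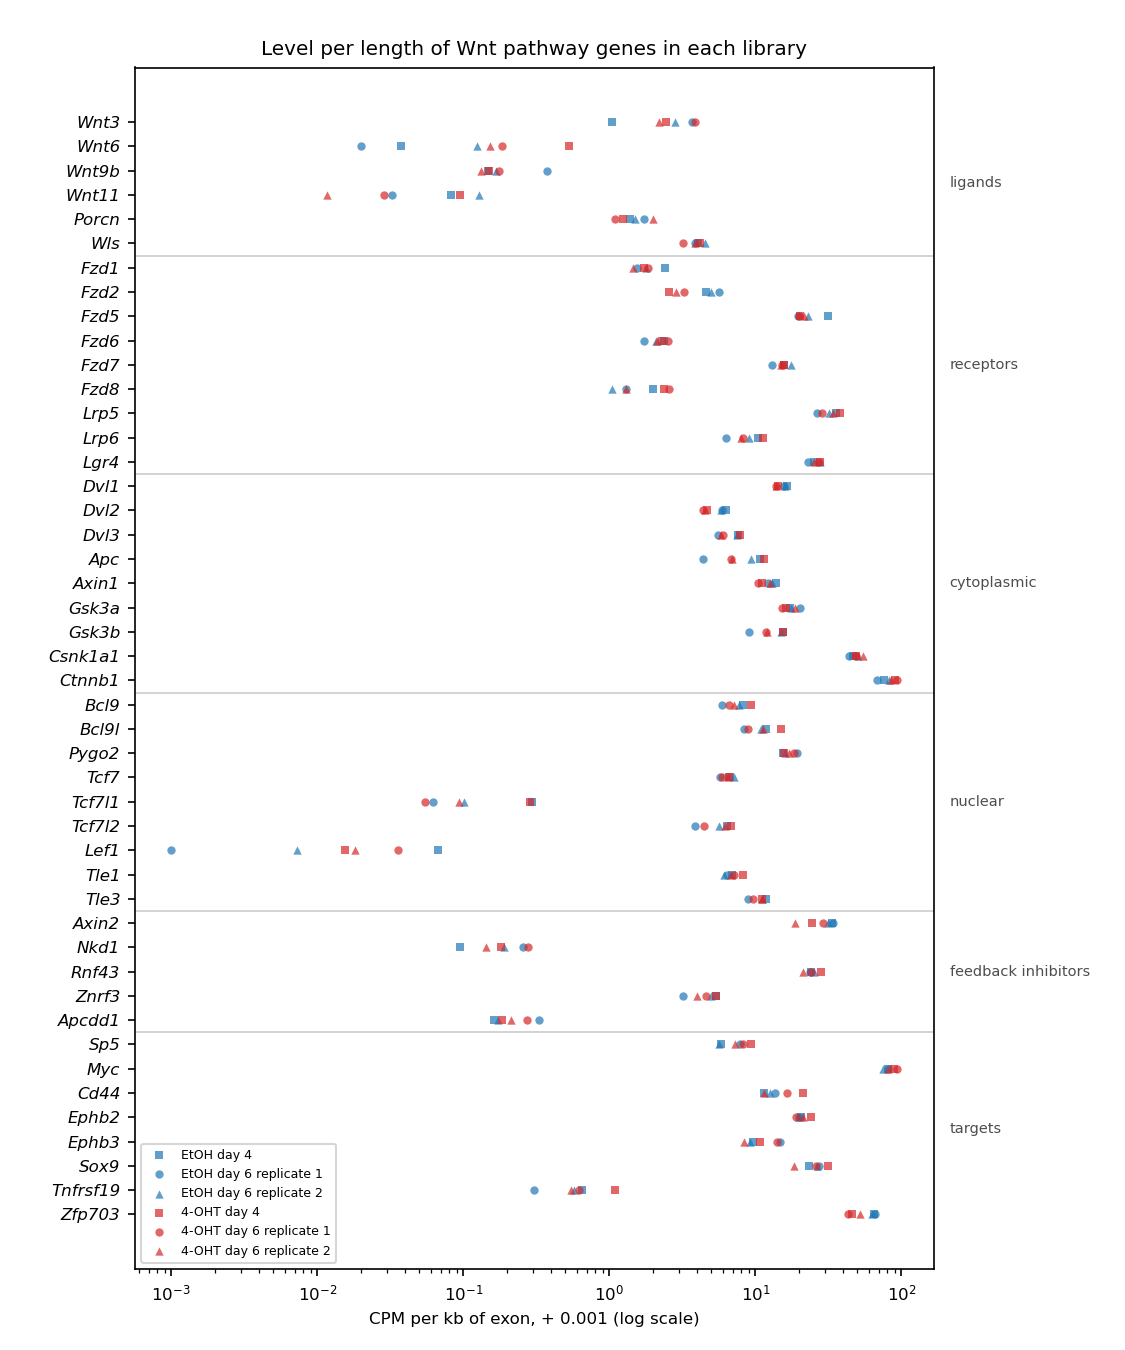
Level in each of the 6 libraries of the members that reached 10 counts in a library, in CPM per kilobase of exon plus 0.001 on a log axis, ordered by layer, with EtOH in blue and 4-OHT in red. Myc and Ctnnb1 lie furthest right and Lef1 furthest left, its point at 0.001 being a library with 0 counts.

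Ligands and their secretion came first in the pathway and gave few counts. Of the 7 genes, 4 were tested, and 0 were called in either fit. Wnt3, the Wnt known from Paneth cells, stood at 11.5 and 8.87 CPM in EtOH and 12.1 and 6.86 CPM in 4-OHT at day 6, so the groups overlapped (log2 fold change -0.11, SE 0.32, adjusted p = 0.967 by edgeR). At day 4 it was 3.28 CPM in EtOH and 7.74 CPM in 4-OHT, a log2 difference of 1.21, and it was the only tested member past 2-fold there, where 7.8% of all genes were past it (5.6% higher and 2.2% lower). The fit over both days gave 0.26 (SE 0.32, adjusted p = 0.763), and the difference between the day 6 and day 4 effects was -1.34 (SE 0.61, unadjusted p = 0.0503, adjusted p = 1 by edgeR).

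Levels of Wnt3 are given beside those of other cell types. The summed level of 9 Paneth markers was 499.9 CPM in EtOH and 1782 CPM in 4-OHT at day 4, 3030 and 2183 CPM in EtOH at day 6, and 5289 and 2180 CPM in 4-OHT at day 6. The library lowest in Wnt3, EtOH at day 4, was also lowest in this sum, and replicate 1 was higher than replicate 2 in both measures in both day 6 groups. The 2 measures parted in 4-OHT: Wnt3 was higher at day 4 (7.74 CPM) than in replicate 2 of day 6 (6.86 CPM). The Paneth sum was lower there (1782 against 2180 CPM). All 9 markers were detected and 1 of them, Ang4, was called higher over both days. The marker Nupr1 ran otherwise, highest in EtOH at day 4 (90.6 CPM) and lower in replicate 1 than in replicate 2 in both day 6 groups. The sum of 8 enteroendocrine markers had the same order of libraries as the Paneth sum. It was 58.4 CPM in EtOH and 276.5 CPM in 4-OHT at day 4. At day 6 it was 445 and 377 CPM in EtOH and 701.5 and 372 CPM in 4-OHT. The part of either cell type in the Wnt3 values was not tested.

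Wls, the carrier that takes Wnt proteins to the cell surface, was at 52.2 and 61.6 CPM in EtOH and 43.5 and 52.1 CPM in 4-OHT at day 6, and at 54.8 and 56.9 CPM at day 4. The highest 4-OHT library at day 6 lay just under the lowest EtOH library, and the day 4 pair ran the other way (log2 fold change -0.25 at day 6, SE 0.18, adjusted p = 0.755 by edgeR; over both days -0.15, SE 0.13, adjusted p = 0.658). Porcn, which acylates Wnt proteins, ranged from 7.35 to 13.4 CPM, and both extremes were libraries labelled 4-OHT at day 6. Wnt9b ranged from 0.589 to 1.70 CPM.

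The remaining Wnt genes were near the limit of detection. Wnt6 had 1 and 6 counts in EtOH and 11 and 8 counts in 4-OHT at day 6, and 2 against 22 counts at day 4. All 3 libraries labelled 4-OHT were above the 3 EtOH libraries, but the gene was too low to be tested. The day 4 ratio of counts over library totals, without TMM scaling, was 14.8 with an exact 95% interval of 3.65 to 130.0, which covers counting error only. Wnt11 had 1 to 11 counts. Rspo1, one of the R-spondins that stromal cells make, had 0 counts in all 6 libraries, which allows up to 3 counts or 0.140 to 0.209 CPM by library.

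Among the receptors, Fzd2 was lower in the libraries labelled 4-OHT and the others did not pass the test. Fzd2 is a Frizzled receptor for Wnt ligands, here ENSMUSG00000050288 at chr11:102495222-102498884 on the plus strand of GRCm39, annotated as an uninterrupted exon. It stood at 20.5 and 18.2 CPM in EtOH and 11.9 and 10.4 CPM in 4-OHT at day 6, and at 16.8 CPM in EtOH and 9.37 CPM in 4-OHT at day 4. All 3 libraries labelled 4-OHT were below all 3 EtOH libraries, and the gap between treatments at each day was larger than the gap between replicates. Of all genes, 9.02% were lower without overlap in this way and 11.1% higher, which holds beside each such case below. The counts behind these levels were 387 and 314 against 255 and 195 at day 6, and 328 against 138 at day 4. The log2 fold change was -0.80 at day 6 (SE 0.23, adjusted p = 0.145 by edgeR), -0.84 at day 4 without a test, and -0.81 over both days (SE 0.16, adjusted p = 0.0205 by edgeR, 95% interval -1.17 to -0.45). The call over both days ended when any of 4 libraries was left out: replicate 1 (adjusted p = 0.0625) or replicate 2 (0.0928) of 4-OHT at day 6, or the 4-OHT (0.137) or EtOH (0.149) library of day 4. Of its exon bases, 4.18% are shared with another annotated gene.

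The other Frizzleds did not share a direction. Fzd5, which was the most abundant Frizzled per kilobase (22.6 CPM per kb), was at 136.5 and 159 CPM in EtOH and 138 and 149.9 CPM in 4-OHT at day 6, with overlapping groups. At day 4 it was 218 CPM in EtOH and 141 CPM in 4-OHT, and the effects of the 2 days differed by 0.59 (SE 0.28, unadjusted p = 0.0626, adjusted p = 1 by edgeR). Fzd8 reached 15.4 and 7.71 CPM in 4-OHT against 7.79 and 6.26 CPM in EtOH at day 6, so 1 library stood above the rest and the other lay within the EtOH range (log2 fold change 0.72, SE 0.35, adjusted p = 0.547). Fzd7 differed by -0.01 at day 6 and by 0.00 over both days, with a 95% interval of -0.29 to 0.28 in the second fit. Fzd6 was higher in both 4-OHT libraries at day 6 (17.3 and 14.5 CPM against 11.8 and 14.3 CPM) and not at day 4. Fzd1 ranged from 6.05 to 10.2 CPM, highest in EtOH at day 4.

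Co-receptors and the R-spondin receptor were not called in either fit. Lrp5 was at 259 and 312 CPM in EtOH and 279 and 334 CPM in 4-OHT at day 6, and at 352 and 374 CPM at day 4. In both groups replicate 2 was the higher library, and that gap exceeded the one between treatments (log2 fold change 0.10 at day 6, SE 0.17, adjusted p = 0.931 by edgeR; 0.10 over both days, SE 0.12, adjusted p = 0.758). Lrp6 ranged from 97.6 to 175 CPM and Lgr4, the receptor for R-spondins, from 171 to 207.6 CPM. Their intervals over both days were -0.21 to 0.40 and -0.18 to 0.32.

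In the cytoplasm, the estimates of the Dishevelled genes were below 0 and that of β-catenin above it, without a call. Of 9 genes, 6 were below 0 and 3 above at day 6, with a median of -0.13. Dvl2, one of 3 Dishevelled proteins that relay the receptor signal, was at 39.2 and 39.0 CPM in EtOH and 29.3 and 30.2 CPM in 4-OHT at day 6, and at 42.0 and 30.9 CPM at day 4. The 3 libraries labelled 4-OHT lay within 29.3 to 30.9 CPM and the 3 EtOH libraries within 39.0 to 42.0 CPM, with no overlap. The log2 fold change was -0.40 at day 6 (SE 0.18, unadjusted p = 0.052, adjusted p = 0.493 by edgeR) and -0.41 over both days (SE 0.12, unadjusted p = 0.0063, adjusted p = 0.0982). The gene shares 23.9% of its exon bases with Acadvl and Mir324, and whether the authors' counting used strand is not given in the sources used here. Dvl1 did not overlap between treatments either (149 and 148 CPM against 169 and 173 CPM at day 6, and 154 against 179 CPM at day 4), and shares 32.5% of its exon bases with Tas1r3. Dvl3 overlapped at 56.1 to 78.8 CPM.

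Ctnnb1, the transducer of the pathway, was at 559 and 676 CPM in EtOH and 767 and 698 CPM in 4-OHT at day 6, and at 622 and 737 CPM at day 4. Each library labelled 4-OHT was above each EtOH library. The difference was not called (log2 fold change 0.24 at day 6, SE 0.18, adjusted p = 0.761 by edgeR; 0.25 over both days, SE 0.12, adjusted p = 0.36), and these values say nothing of the protein, which is controlled by degradation. In the destruction complex, Axin1 differed by -0.20, Gsk3a by -0.14, Gsk3b by 0.00, Csnk1a1 by 0.10 and Apc by 0.04 on the log2 scale over both days, with 0 called. Apc showed how far single libraries could sit apart: it was 78.3 and 167 CPM in the EtOH replicates and 123 and 124 CPM in the 4-OHT replicates at day 6.

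Nuclear factors had the narrowest range of estimates among the tested layers. Over both days the 8 tested genes spanned -0.09 to 0.19 on the log2 scale, and 0 had an unadjusted p under 0.05. Pygo2, a Pygopus co-activator, was at 69.9 and 58.1 CPM in EtOH and 66.3 and 61.3 CPM in 4-OHT at day 6, and at 56.3 and 57.4 CPM at day 4. The 4-OHT pair lay inside the EtOH pair (log2 fold change -0.01 at day 6, SE 0.17, adjusted p = 0.996 by edgeR; 0.01 over both days, SE 0.12, adjusted p = 0.988). Tle1, a co-repressor of Tcf factors, gave the largest estimate of the layer (0.19, SE 0.10, adjusted p = 0.402 over both days). The β-catenin partners Bcl9 and Bcl9l differed by 0.06 and 0.15, the DNA-binding factors Tcf7 and Tcf7l2 by -0.03 and 0.13, and the co-repressor Tle3 by 0.01. Lef1, which binds the same sites as Tcf factors, had 12 counts in EtOH and 2 in 4-OHT at day 4 (ratio of counts over library totals 0.225, exact 95% interval 0.0245 to 1.01), and 0 and 1 counts in EtOH against 7 and 3 in 4-OHT at day 6. It was too low to be tested and the directions at the 2 days were opposite.

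Secreted inhibitors among the members were almost silent. Sfrp1, which binds Wnt proteins, had 0 to 2 counts in a library. Dkk2, which blocks Lrp co-receptors, had 4 and 1 counts in the 4-OHT libraries of day 6 and 0 elsewhere. Dkk3, a relative of the Dickkopf inhibitors, had 0 to 8 counts. None of the 3 could be tested. Sfrp5, a secreted inhibitor outside the members, was called lower and is given further on.

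Feedback inhibitors are targets that restrain the pathway, and Axin2 is the best known of them. Axin2 was at 237 and 219 CPM in EtOH and 201 and 130.0 CPM in 4-OHT at day 6, and at 232 and 171 CPM at day 4. Every library labelled 4-OHT was below every EtOH library, though replicate 1 of 4-OHT at day 6 lay nearer to the EtOH libraries than to its partner. The log2 fold change was -0.47 at day 6 (SE 0.21, unadjusted p = 0.0472, adjusted p = 0.471 by edgeR) and -0.46 over both days (SE 0.15, unadjusted p = 0.0134, adjusted p = 0.155). Leaving out 1 day 6 library at a time gave day 6 values from -0.81, without replicate 1 of 4-OHT, to -0.19, without replicate 2 of 4-OHT.

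The other feedback inhibitors did not share that direction throughout. Rnf43, the ligase that removes Frizzleds from the surface, was at 154 and 165 CPM in EtOH and 158 and 140.1 CPM in 4-OHT at day 6, and at 157 and 184 CPM at day 4 (log2 fold change -0.10 at day 6, SE 0.16, adjusted p = 0.918; 0.01 over both days, SE 0.11, adjusted p = 0.978). Znrf3, its relative, was at 25.7 and 40.0 CPM in EtOH and 37.1 and 31.8 CPM in 4-OHT at day 6, and at 43.2 and 42.9 CPM at day 4 (0.07 at day 6, SE 0.23, adjusted p = 0.972; 0.04 over both days, SE 0.17, adjusted p = 0.937). In both genes the groups overlapped at day 6. Nkd1, which binds Dishevelled, was low at 2.12 and 1.57 CPM in EtOH and 2.28 and 1.18 CPM in 4-OHT at day 6, and 0.769 and 1.49 CPM at day 4 (-0.08 at day 6, SE 0.48, adjusted p = 0.984; 0.17 over both days, SE 0.40, adjusted p = 0.89). Apcdd1, a membrane inhibitor, was at 5.35 and 2.78 CPM in EtOH and 4.37 and 3.43 CPM in 4-OHT at day 6, and 2.62 and 2.99 CPM at day 4 (-0.07 at day 6, SE 0.39, adjusted p = 0.984; 0.01 over both days, SE 0.31, adjusted p = 0.994). Notum, an enzyme that inactivates Wnt proteins, had 1 to 8 counts and shares 48.7% of its exon bases with other genes.

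Among the other targets, Zfp703 was lower in the libraries labelled 4-OHT while the estimates of Myc, Sp5 and Cd44 were above 0 without a call. Zfp703, which encodes a zinc finger transcriptional co-repressor, is ENSMUSG00000085795 at chr8:27467135-27471489 on the plus strand of GRCm39. It was at 239 and 226 CPM in EtOH and 154 and 187 CPM in 4-OHT at day 6, and at 236 and 165 CPM at day 4. The 3 EtOH libraries lay within 226 to 239 CPM and all of the 4-OHT libraries below them. The log2 fold change was -0.45 at day 6 (SE 0.17, adjusted p = 0.312 by edgeR), -0.52 at day 4 without a test, and -0.47 over both days (SE 0.11, adjusted p = 0.0449 by edgeR, 95% interval -0.72 to -0.22). The call sat close to the threshold: the adjusted p was 0.007 with DESeq2, 0.0505 with limma-voom, 0.0616 without a count filter and 0.0627 without the day term. It was lost on leaving out any single library except replicate 2 of EtOH at day 6, with adjusted p from 0.0627 to 0.322. The gene shares 18.2% of its exon bases with 2 predicted genes, Gm39150 and Gm45371.

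**Figure D3:**
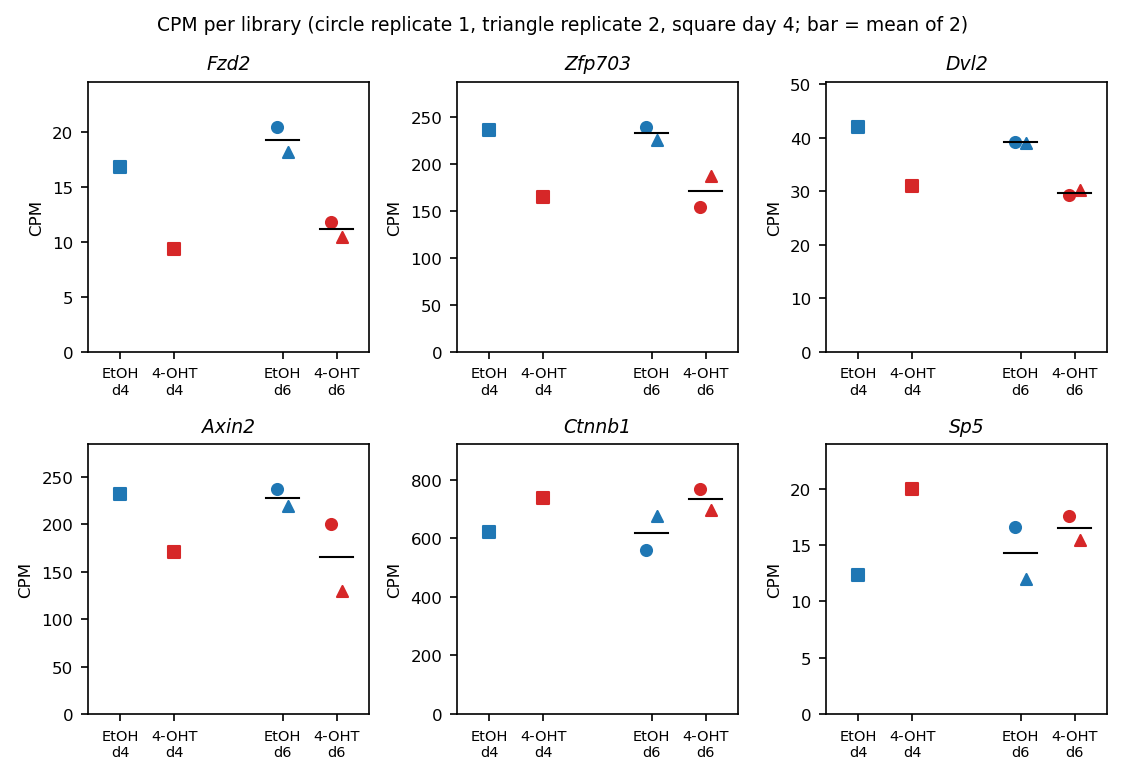
CPM in each library for Fzd2, Zfp703, Dvl2, Axin2, Ctnnb1 and Sp5, with EtOH in blue and 4-OHT in red at day 4 (d4) and day 6 (d6) and a bar at the mean of 2 replicates. In the first 4 genes the 3 libraries labelled 4-OHT all lie below the 3 EtOH libraries, in Ctnnb1 all above, and in Sp5 the day 6 groups overlap. Of all genes, 9.02% lie below without overlap and 11.1% above.

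Myc, the growth-promoting target, was at 219.6 and 205 CPM in EtOH and 254 and 222 CPM in 4-OHT at day 6, and at 221 and 242 CPM at day 4. All 3 libraries labelled 4-OHT were higher by a small margin (log2 fold change 0.16 at day 6, SE 0.16, adjusted p = 0.852 by edgeR; 0.15 over both days, SE 0.11, adjusted p = 0.535). Sp5, a transcription factor gene induced directly by β-catenin, was at 16.6 and 11.9 CPM in EtOH and 17.5 and 15.4 CPM in 4-OHT at day 6, and at 12.4 and 20.0 CPM at day 4 (0.20 at day 6, SE 0.25, adjusted p = 0.889; 0.36 over both days, SE 0.19, adjusted p = 0.394). Tnfrsf19, a receptor of the tumour necrosis factor family found in crypt stem cells, was at 2.28 and 4.29 CPM in EtOH and 4.61 and 4.07 CPM in 4-OHT at day 6, and at 4.87 and 8.14 CPM at day 4 (0.41 at day 6, SE 0.38, adjusted p = 0.843; 0.54 over both days, SE 0.28, adjusted p = 0.385). In the last 2 genes the day 6 groups overlapped.

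Promoters of the targets Sp5, Tnfrsf19 and Axin2, none of them called, show where letters of the Tcf/Lef recognition motif stand. Sp5 and Tnfrsf19 are shown because they held a match, and Axin2 was added by name. This choice cannot relate a match to a fold change, and fold changes with and without a match were not compared. Each promoter is the 250 bases before the annotated start, from RefSeq on GRCm38.p6, read 5′ to 3′ along the gene. CTTTGAA and CTTTGAT were searched on both strands, the reverse forms being TTCAAAG and ATCAAAG, and matches are in capitals. Sp5 lies at chr2:70474673-70474922 on the plus strand, Tnfrsf19 at chr14:61037988-61038237 on the minus strand and Axin2 at chr11:108920099-108920348 on the plus strand.
Sp5: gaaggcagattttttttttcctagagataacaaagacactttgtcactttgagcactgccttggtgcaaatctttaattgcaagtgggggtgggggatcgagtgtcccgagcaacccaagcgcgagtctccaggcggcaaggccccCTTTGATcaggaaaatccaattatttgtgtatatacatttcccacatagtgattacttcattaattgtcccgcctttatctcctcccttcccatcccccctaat
Tnfrsf19: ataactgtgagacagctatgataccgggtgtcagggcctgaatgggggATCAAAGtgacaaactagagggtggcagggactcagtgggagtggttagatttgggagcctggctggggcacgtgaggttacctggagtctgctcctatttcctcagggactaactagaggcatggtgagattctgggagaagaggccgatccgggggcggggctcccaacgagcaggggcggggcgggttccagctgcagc
Axin2: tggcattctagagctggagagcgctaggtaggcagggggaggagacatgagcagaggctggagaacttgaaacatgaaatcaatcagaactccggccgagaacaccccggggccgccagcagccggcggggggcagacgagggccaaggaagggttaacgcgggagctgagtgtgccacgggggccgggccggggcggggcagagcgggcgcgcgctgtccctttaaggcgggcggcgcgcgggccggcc
In Sp5 the match CTTTGAT begins 104 bases before the start. In Tnfrsf19 the reverse form ATCAAAG begins 202 bases before it. The Axin2 window holds neither form. RefSeq promoters were at hand for 33 of the 51 members, and 4 of these genes (also Gsk3a and Wnt11) held a match, where 8.63% of all 27025 genes of the table and 7.48% of all 32851 promoters did. Of the match genes not shown, Gsk3a had estimates below 0 (-0.17 at day 6 and -0.14 over both days) and Wnt11 was too low to be tested. A match describes letters in this window and does not show binding. A window without a match, as in Axin2, says nothing of sites elsewhere in the gene.

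Cd44, an adhesion receptor of crypt cells, was at 92.9 and 84.7 CPM in EtOH and 111 and 77.8 CPM in 4-OHT at day 6, with the 4-OHT pair on either side of the EtOH pair (log2 fold change 0.08, SE 0.19, adjusted p = 0.959 by edgeR). At day 4 it was 77.8 CPM in EtOH and 145 CPM in 4-OHT, a log2 difference of 0.89. It was the only member with an unadjusted p under 0.05 for the difference between the day 6 and day 4 effects (-0.81, SE 0.34, unadjusted p = 0.0361, adjusted p = 1), a test in which 1.62% of all genes reached that level (0.704% higher and 0.917% lower) and 0 were called. Over both days its log2 fold change was 0.36 (SE 0.19, adjusted p = 0.394).

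Ephb2 and Ephb3 position cells along the crypt. Ephb2 was at 253 CPM in both EtOH libraries and at 239 and 268 CPM in 4-OHT at day 6, and at 260.0 and 306.5 CPM at day 4, with a day 6 difference of 0.00 (SE 0.16, adjusted p = 1 by edgeR) and 0.08 over both days (SE 0.11, adjusted p = 0.781). Ephb3 was at 102 and 63.4 CPM in EtOH and 97.7 and 58.0 CPM in 4-OHT at day 6, and at 66.8 and 73.9 CPM at day 4 (-0.09 at day 6, SE 0.27, adjusted p = 0.968; -0.01 over both days, SE 0.22, adjusted p = 0.992). Its replicates differed far more than its treatments. Sox9, a transcription factor of Paneth and crypt base cells, was at 114 and 111 CPM in EtOH and 109 and 77.3 CPM in 4-OHT at day 6, and at 97.8 and 132 CPM at day 4 (-0.27 at day 6, SE 0.19, adjusted p = 0.748; -0.03 over both days, SE 0.17, adjusted p = 0.952). Its day 6 and day 4 directions were opposite.

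Day 4 gave 1 library for each treatment and no test. Of the tested members, 26 had the same sign at day 4 and day 6, out of 42. The share over all genes was not counted, so this is a description only. Seen by layer, 7 of the 8 other targets were higher in the 4-OHT library at day 4, Zfp703 being the exception, with a median log2 difference of 0.33. At day 6, 4 of the same 8 were higher and the median was 0.04. The lean at day 4 was not seen in 13 target genes outside the members, Lgr5 and Ascl2 included. Of those, 7 were higher at day 4, with a median of 0.009. The other layers leaned less at day 4 or held few tested genes. Higher there were 3 of 4 in the ligand layer, 5 of 9 receptors and 5 of 9 cytoplasmic genes. So were 5 of 8 nuclear factors and 3 of 5 feedback inhibitors. The median over all genes at day 4 was 0.00, and the share of all genes above 0 was not counted. Marker sums of Paneth (1782 against 499.9 CPM), enteroendocrine (276.5 against 58.4 CPM), enterocyte (1992 against 1188 CPM) and goblet cells (2438 against 2044 CPM) also stood higher in the 4-OHT library at day 4, and those of stem (4362 against 5189 CPM) and tuft cells (7.33 against 10.8 CPM) lower. Of the stem markers at day 4, Olfm4, Lgr5, Smoc2 and Clca3b were lower in the 4-OHT library and Igfbp4, Ascl2 and Slc12a2 higher. The part of these cell types in the day 4 differences of the members was not tested.

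**Figure D4:**
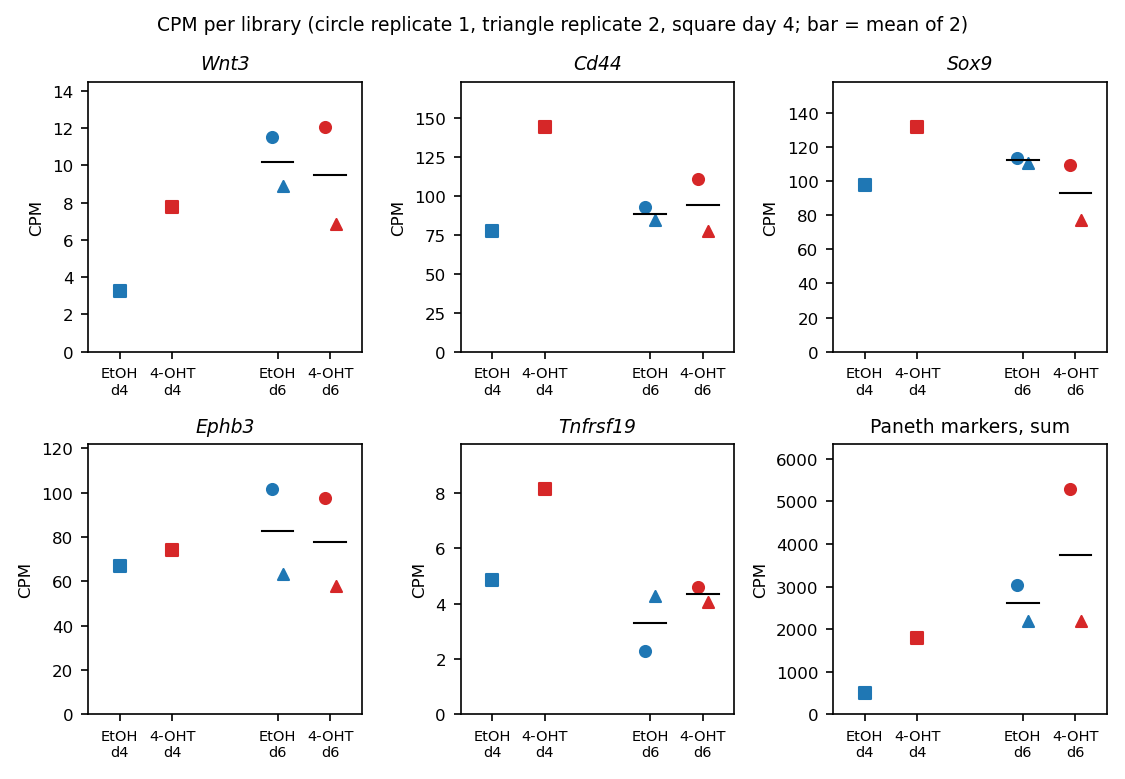
CPM in each library for Wnt3, Cd44, Sox9, Ephb3 and Tnfrsf19 and the sum of 9 Paneth markers, with EtOH in blue and 4-OHT in red at day 4 (d4) and day 6 (d6), circles for replicate 1, triangles for replicate 2 and a bar at the mean of 2 replicates. At day 4 the 4-OHT library is the higher in every panel, and at day 6 the groups overlap in all but Sox9.

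Replicate differences at day 6 were set beside treatment differences. In 36 of the 42 tested members the larger of the replicate differences exceeded the fitted difference between treatments (85.7%), and the same held for 72.6% of all genes. A single-library difference varies more than a difference of means, so this is a description only. The median absolute log2 difference of the members was 0.28 between the EtOH replicates and 0.21 between the 4-OHT replicates, on CPM plus 0.1, and 0.10 between treatments. Over all genes these medians were 0.30, 0.19 and 0.19. Replicate 1 was higher than replicate 2 in both groups for 14 members, lower in both for 12 and opposite for 16. Both 4-OHT libraries of day 6 lay outside the range of EtOH for 11 tested members, 4 higher and 7 lower, where 38.9% of all genes did (20.4% higher and 18.4% lower). Over the 3 libraries of each treatment, 2 tested members did not overlap and were higher, Ctnnb1 and Myc, and 5 were lower, Fzd2, Dvl1, Dvl2, Axin2 and Zfp703. Of all genes, 20.1% did not overlap there, 11.1% higher and 9.02% lower.

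**Figure D5:**
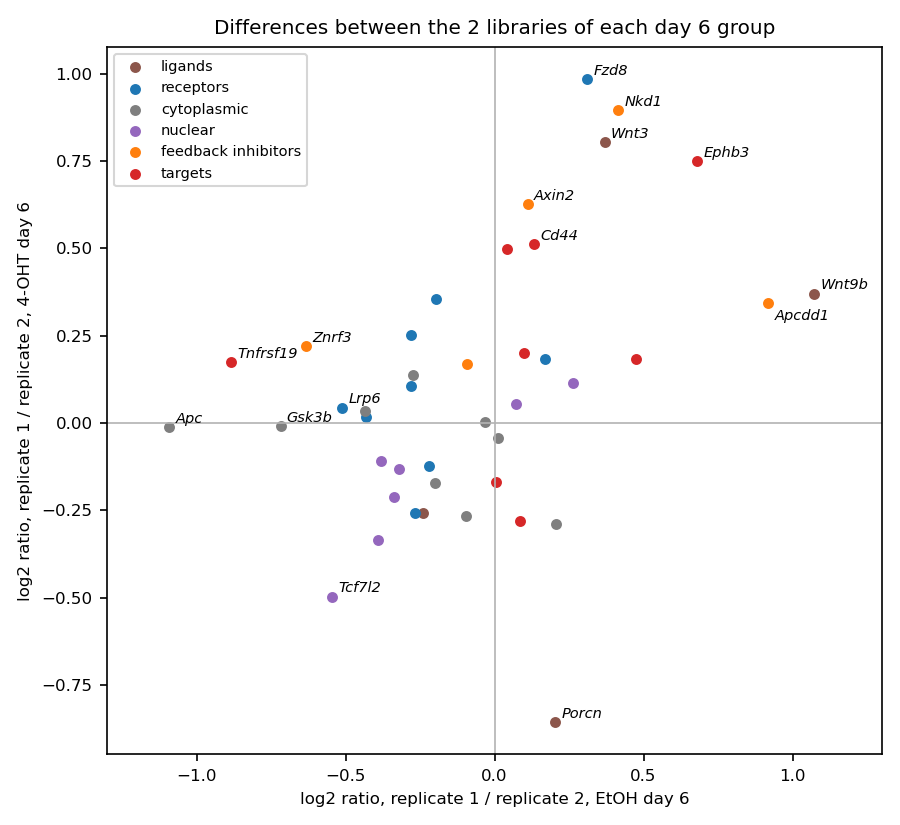
Log2 ratio of replicate 1 to replicate 2 in 4-OHT plotted against that in EtOH at day 6 for each tested member, coloured by layer. Ephb3 and Wnt3 lie above 0 on both axes, and Apc lies far from 0 in EtOH and near it in 4-OHT.

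Between days, 0 members were called in the day term of the fit, where 0.562% of all genes were. At an unadjusted p under 0.05 there were 8 members, against 12.6% of all genes (6.02% higher and 6.54% lower). Wnt3 was higher at day 6 (0.90, SE 0.35, adjusted p = 0.329 by edgeR). Lrp5, Lrp6, Apc, Bcl9, Bcl9l, Tcf7l1 and Tnfrsf19 were lower, from -0.30 for Lrp5 to -1.92 for Tcf7l1. Tcf7l1, a Tcf factor that mostly represses, had 30 and 22 counts at day 4 and 6 to 9 counts at day 6 (SE 0.46, unadjusted p = 0.00198, adjusted p = 0.129 by edgeR). More genes had a count in the day 4 libraries than in those of day 6, and the part of that in such low values was not tested. Without replicate 2 of EtOH at day 6, 4 members were called lower at day 6 (Lrp6, Bcl9l, Gsk3b and Apc). In that setting the calls over all genes also rose, to 559 from 79 in the main fit. Day 4 and day 6 libraries carry different library-name series, so day and that series cannot be told apart.

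Beyond the members, 86 other genes of the pathway were counted, of which 55 were tested at day 6 and 54 over both days. At day 6 1 was called lower, Sfrp5, and 0 higher, where 2.51% of all genes were called (0.235% lower and 2.27% higher). Sfrp5, a secreted inhibitor that binds Wnt proteins, was at 15.5 and 10.4 CPM in EtOH and 3.54 and 4.12 CPM in 4-OHT at day 6, and at 9.74 and 3.60 CPM at day 4. Its log2 fold change was -1.76 at day 6 (SE 0.31, adjusted p = 0.0165 by edgeR) and -1.66 over both days (SE 0.24, adjusted p = 0.0036), and the day 6 call was lost without replicate 1 of EtOH (adjusted p = 0.158). Over both days 3 were called: Sfrp5, lower, and Tle6 and Ccnd1, both higher. Of all genes, 4.39% were called there, 0.718% lower and 3.67% higher. Tle6, a Groucho-like gene, was at 6.14 and 7.83 CPM in EtOH and 13.4 and 15.7 CPM in 4-OHT at day 6, and at 5.90 and 14.9 CPM at day 4 (1.15 over both days, SE 0.19, adjusted p = 0.00875 by edgeR). It was lost without either day 4 library (0.0857 and 0.0752) and shares 14.0% of its exon bases with Tle2.

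The cell cycle target Ccnd1 was at 122 and 133 CPM in EtOH and 185 and 152 CPM in 4-OHT at day 6, and at 113 and 210.5 CPM at day 4 (0.57 over both days, SE 0.14, adjusted p = 0.0485 by edgeR). Its adjusted p ran from 0.00695 to 0.44 over the alternatives, and it was not called without any 1 of 4 libraries: replicate 1 of either group at day 6 (0.0809 for EtOH, 0.193 for 4-OHT) or either day 4 library (0.434 for EtOH, 0.44 for 4-OHT). The gene shares 48.4% of its exon bases with LTO1. Lgr5 was at 250.1 and 344.5 CPM in EtOH and 209 and 227 CPM in 4-OHT at day 6, and at 368 and 274 CPM at day 4 (-0.44 over both days, SE 0.13, adjusted p = 0.11, and 0.0477 by DESeq2). Over the alternative fits by edgeR, DESeq2 and limma-voom, the adjusted p of Lgr5 over both days ran from 0.0203 to 0.421. The sort was made on the GFP of the Lgr5 allele. Ascl2, a stem cell transcription factor, was at 52.0 and 20.9 CPM in EtOH and 44.1 and 36.4 CPM in 4-OHT at day 6, and at 21.2 and 39.0 CPM at day 4 (0.38 over both days, SE 0.29, adjusted p = 0.596). Its value over both days ran from 0.12 to 0.91 as 1 library was left out, and it was called higher without replicate 1 of EtOH at day 6 (adjusted p = 0.0105).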

How the data were processed

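RNA was measured by poly-A RNA-seq in 6 libraries of Lgr5-GFP+ organoid cells. The deposited values are raw counts per gene. Per the submitters' processing notes, STAR and mm39 were used; the role of STAR, its version, the gene annotation, the handling of reads on shared exons and the strand setting are not given in the sources used here. Summary lines that name no gene (19.29 to 26.71% of each file's total) were left out. Gene IDs were matched to GENCODE on GRCm39 (56323 of 56884). Depth was 14345379 to 21461835 gene counts. Replicate libraries differed beyond sampling noise (chi-square per degree of freedom 22.87 and 33.25) and were kept as replicates.

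edgeR 4.0.16 (R 4.3.3) gave the tests: TMM scaling, filterByExpr with a minimum count of 10, quasi-likelihood F tests without the legacy option, and Benjamini-Hochberg adjustment over all genes tested. A call is an adjusted p under 0.05. The standard error is the log2 fold change over the root of F, and the 95% intervals were built from it and are approximate. Day 4 differences use a prior count of 2. Fits were tested on simulated counts with 200 changed genes: at day 6, over 14066 genes, 81% of 4-fold and 46% of 2-fold changes were recovered, and over both days, over 14060 genes, 92% and 67%. Unchanged genes made up 13.61% of the calls at day 6 and 8.62% over both days. For the difference between the days' effects, over 14060 genes, 53% of 4-fold and 4% of 2-fold changes were recovered. DESeq2 1.42.0, limma-voom 3.58.1, other scaling, other filters, a replicate block and leaving out each library were alternatives.

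The members and lists were chosen with earlier results of these data known. Every member is named; values in every library are given for members with a p under 0.05 in a treatment comparison or in the contrast of the 2 days' effects, for feedback inhibitors and other targets, and for the highest member per length of a tested layer. Wnt3, Wnt6, Fzd5, Fzd6, Fzd8, Dvl1, Apc, Lef1, Dkk2 and Tcf7l1 were given by library after their values were seen. Other pathway genes are named where called, with Lgr5 and Ascl2.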

Additional observations from a re-analysis of the deposited data

How the results depend on the processing

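Among the members, 0 were called at day 6 under every scaling, filter, test and left-out library tried, and 1 (Fzd2, adjusted p = 0.0277) with the replicate block. The same-numbered day 6 libraries share only a number in the labels: the deviations of their genes from the group means correlated at 0.272 over 14017 genes, with 2 pairs. The block raised the calls over all genes at day 6 from 353 to 839, and for Tle6 gave an adjusted p of 0.00332. Over both days, 2 members were called, and 1 (Fzd2) under no filter, limma-voom, no day term and the legacy quasi-likelihood, the last chosen after seeing the data. Leaving out 1 library gave 0 to 2 members over both days and 0 to 4 in the day term. Calls over all genes ran from 99 to 409 at day 6 (99 without replicate 1 of EtOH) and from 361 to 699 over both days as 1 library was left out, against 617, and were 361 without the day term. The difference between days called 0 genes with edgeR and 6 with DESeq2. The day term called 79 genes, and 182 with no filter, 306 with DESeq2, 42 with limma-voom, 50 with the legacy fit and 12 to 559 with 1 library left out. The cause of these changes was not tested.

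Direction changed at day 6 for Ephb2 with no filter (0.0078) and with all 6 libraries in 4 groups (0.0032), and for Pygo2 with no filter (0.001). Without 1 library at a time, day 6 values crossed 0 for Apcdd1 (-0.46 to 0.49), Ascl2 (-0.37 to 0.95), Cd44 (-0.19 to 0.31), Ephb2 (-0.0914 to 0.0845), Ephb3 (-0.51 to 0.30), Lrp5 (-0.0384 to 0.24), Nkd1 (-0.65 to 0.29), Pygo2 (-0.14 to 0.13), Sp5 (-0.0183 to 0.46) and Znrf3 (-0.22 to 0.41). Those over both days did for Apcdd1 (-0.24 to 0.37), Ephb2 (-0.0011 to 0.15), Ephb3 (-0.22 to 0.23), Nkd1 (-0.0818 to 0.48), Pygo2 (-0.0719 to 0.0864), Rnf43 (-0.10 to 0.0887), Sox9 (-0.27 to 0.16) and Znrf3 (-0.13 to 0.22). Of the values for single genes under an alternative, 581 kept their direction and their side of the threshold, 43 changed direction, 25 lost a call and 6 gained one. Among the members followed this way, Fzd2, Zfp703, Dvl2, Axin2 and Wls kept a value below 0 throughout. Myc, Ctnnb1 and Tnfrsf19 kept one above 0. Where the libraries of the treatments did not overlap, leaving out 1 of them could hardly change the direction, so this adds no support. Changes near 2-fold were often missed in simulated counts at day 6, and 8 members were too low to test in either fit. Where leaving out a library left 1 in a group, that library was assumed to vary like the others.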
